A study of Mus musculus with 6 samples.

Results

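Follicular dendritic cells (FDC) grown in culture were compared with bone marrow derived dendritic cells (BMDC) in the mouse, which is the comparison named in the design of the series. It uses 4 of the 6 samples of the series, 2 labelled as FDC cultured in vitro and 2 labelled as BMDC, chosen by their labels and not by any measured value. The remaining arrays, of an FDC-like line transformed with SV40 and of the same line after its lymphotoxin beta receptor was engaged by antibody, entered no test here. Neither cell type carried a stated treatment, and no strain, age or growth factor is named in the labels used here. Each sample was total RNA hybridised to 1 oligonucleotide expression array, read as one signal per probe set. Nothing in the labels states that the 2 arrays of a cell type came from separate cultures or animals, so each p-value measures only the spread between these arrays, which may be technical.

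FDC are resident stromal cells of the B cell follicle. They arise from mesenchymal precursors, hold antigen on their surface as immune complexes and offer it to B cells in the germinal centre. BMDC are raised from haematopoietic progenitors of the marrow, take up and digest antigen, and present peptides to T cells, so the comparison sets a stromal cell against a blood-derived one. The account below concerns the enzymes, carriers, receptors, signalling proteins and transcription factors that separated the cell types, and takes matrix genes and myeloid surface markers only as a check of the labels.

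Correlations were taken on log2 of (signal + 14.2) over the 27022 probe sets tested below, which are no independent replicates. There r was 0.925 for the pair of BMDC arrays and 0.899 for the pair of FDC arrays. Signals had been scaled to one trimmed mean, and the 4 array medians lay between 76.2 and 84.1. The ratio of 3′ to 5′ signal of the control probe sets for actin lay between 1.01 and 1.16, and that for Gapdh between 0.875 and 0.904. Labelling controls relative to hybridisation controls were lower on the first arrays (0.0478 in BMDC, 0.0456 in FDC) than on the second (0.195 in BMDC, 0.107 in FDC). Every one of the 1436 genes called below kept its direction when the first arrays and the second arrays were compared separately. Those genes were called from these same arrays, so this is not an independent check.

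The labels were checked against marker genes. Of 16 tested FDC markers, 0 rose and 3 fell on the FDC arrays (Fcgr2b, Clu and Mfge8) and the list's median difference was 0.20. The list therefore did not separate cultured FDC from BMDC in the direction of the label. Cr2, the complement receptor that defines FDC in the follicle, read 59.1 and 71.1 in BMDC and 120 and 4.1 in FDC and was not called. Cxcl13, the follicular B cell attractant, read 50.9 and 36.4 in BMDC and 1288 and 64.5 in FDC, which is a clear signal on 1 of the 2 FDC arrays. Mfge8 was -2.18 ± 0.38 (SE, adjusted p = 0.0290), a call lost in each of the 4 fits without 1 array, with differences of -2.34 to -2.01 and adjusted p of 0.0579 to 0.121. Fcgr2b read 32488 and 23877 in BMDC and 199 and 198 in FDC, a difference of -7.03 ± 0.39 (SE, limma adjusted p = 0.00264). Clu read 3476 and 5286 in BMDC and 222 and 71.2 in FDC, a difference of -4.92 ± 0.61 (SE, limma adjusted p = 0.0109). Both were called lower on 4 of 4 tested probe sets and held the call in each fit. Icam1 (-0.26), Bst1 (0.23), Fcer2a (0.18), Madcam1 (0.13) and Cr1l (0.08) differed little and were not called. Other markers were brighter on both FDC arrays without passing the test. Vcam1, an adhesion molecule of FDC and other stromal cells, read 108 and 875 in BMDC and 6959 and 5764 in FDC, a difference of 4.27 ± 0.95 (SE, adjusted p = 0.0566), and 1 of its 3 tested probe sets was called higher. The prion protein gene Prnp read 2842 and 1117 in BMDC and 12399 and 8305 in FDC, a difference of 2.50 ± 0.58 (SE, adjusted p = 0.0615), and 1 of its 2 tested probe sets was called higher. Tnfsf13b, which encodes the B cell survival factor BAFF, read 137 and 547 in BMDC and 4004 and 1265 in FDC, a difference of 2.96 ± 0.85 (SE, adjusted p = 0.107). Pdpn, the stromal glycoprotein podoplanin, read 3702 and 2162 in BMDC and 6473 and 11599 in FDC, a difference of 1.61 ± 0.50 (SE, adjusted p = 0.130). Of 16 fibroblast and mural markers, 11 rose and 0 fell, and their summed signal was 34882 and 23112 on the BMDC arrays against 333728 and 249912 on the FDC arrays. The dendritic cell list went the opposite way, with 11 of 14 tested markers lower and sums of 228855 and 175798 against 2505 and 2674. Macrophage and monocyte markers (11 of 12 tested lower, sums of 212748 and 164833 against 3550 and 2094) and granulocyte markers (8 of 9 tested lower, sums of 85766 and 152141 against 1542 and 734) fell as well. Of 9 tested mast cell markers 4 rose, namely the proteases Tpsab1, Tpsb2, Mcpt4 and Cma1. The rest were not called and went both ways. Ms4a2 (-1.12) and Kit (-0.84) were lower, and Cpa3 (1.01) and Fcer1a (0.81) higher. Hdc read 236 and 248 in BMDC and 93.6 and 23.7 in FDC, and 1 of its 2 tested probe sets was called lower. The difference of Cma1 was 5.47 ± 0.83 (SE, adjusted p = 0.0193), a call lost without FDC array 2 at 4.82, adjusted p = 0.0518. The mast cell sums were 6087 and 1394 on the BMDC arrays against 7827 and 14138 on the FDC arrays. Of 8 tested T and NK cell markers 3 rose, with sums of 1481 and 192 against 2625 and 1499. One was Cd3d (3.95, call lost without BMDC array 2 at 3.15, adjusted p = 0.0627 and without FDC array 1 at 3.52, adjusted p = 0.0770). The next was Cd3g (3.31, call lost without BMDC array 2 at 2.69, adjusted p = 0.0874 and without FDC array 1 at 2.92, adjusted p = 0.0857). The last was Cd8b1 (3.14, call lost without BMDC array 2 at 2.98, adjusted p = 0.0597, and not tested without FDC array 1 or FDC array 2). None of 6 tested B cell markers was called, and Cd79a read 245 and 89.6 in BMDC and 77.3 and 27.4 in FDC. Of 6 tested endothelial markers 2 fell, with sums of 5177 and 2324 against 392 and 491. Vwf, the von Willebrand factor of endothelium and megakaryocytes, read 3753 and 1180 in BMDC and 2.10 and 7.0 in FDC, a difference of -6.83 ± 0.63 (SE, adjusted p = 0.00507), with both FDC arrays under background. Pecam1, which leukocytes and platelets also carry, was -4.29 ± 0.43 (SE, adjusted p = 0.00630). Of 6 tested epithelial markers 1 fell, the cadherin Cdh1 at -4.52 ± 0.41 (SE, adjusted p = 0.00482), with sums of 1854 and 1831 against 604 and 1869. Of 2 tested erythroid markers 0 were called, with sums of 570 and 196 against 233 and 145. In RNA from whole cultures, fewer cells of a type and less RNA per cell cannot be told apart, and the part these cell types play in the differences below was not tested.

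Of 27022 probe sets tested with limma 2413 were called, which is 8.93%, with 4.84% higher and 4.09% lower in cultured FDC. Of 12750 genes tested with limma, each by its brightest probe set, 1436 differed between cultured FDC and BMDC at an adjusted p under 0.05, which is 11.3% of the genes tested. A share of 5.87% (748 genes) rose in cultured FDC and 5.40% (688 genes) fell, and the median difference over all tested genes was -0.03 on the log2 scale. The smallest difference called, in either direction, was 1.74, but some larger ones were not called, such as that of Vcam1 at 4.27. With 2 arrays per cell type a list with 0 called genes may still hold differences smaller or larger than 1.74. All differences are log2 of (signal + 14.2) in FDC minus BMDC, given with the standard error (SE) and with 2 arrays per cell type. Signals are listed as array 1 and then array 2 of each cell type. For 0 of the 1436 called genes did the FDC and the BMDC arrays overlap, which calling from these same arrays nearly ensures. For 114 of them both arrays of the lower cell type lay under the background mark, a signal of 13.7 to 15.4, and the size of such a difference depends on the offset of 14.2. Leaving out 1 array at a time ended the call of 922 genes in at least 1 of the 4 fits, and 514 genes (4.03% of those tested) were called in all of them. Genes described below held their call in all 4 fits unless the array that ends it is given beside them. Counts for gene lists are given in the same way, with the range over the 4 fits wherever leaving out 1 array moved a count of 3 or more by over 1.5 times. The 47 lists of metabolic, transport, receptor, signalling and transcription factor genes held 1793 tested genes, of which 185 rose and 185 fell.

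**Figure D1:**
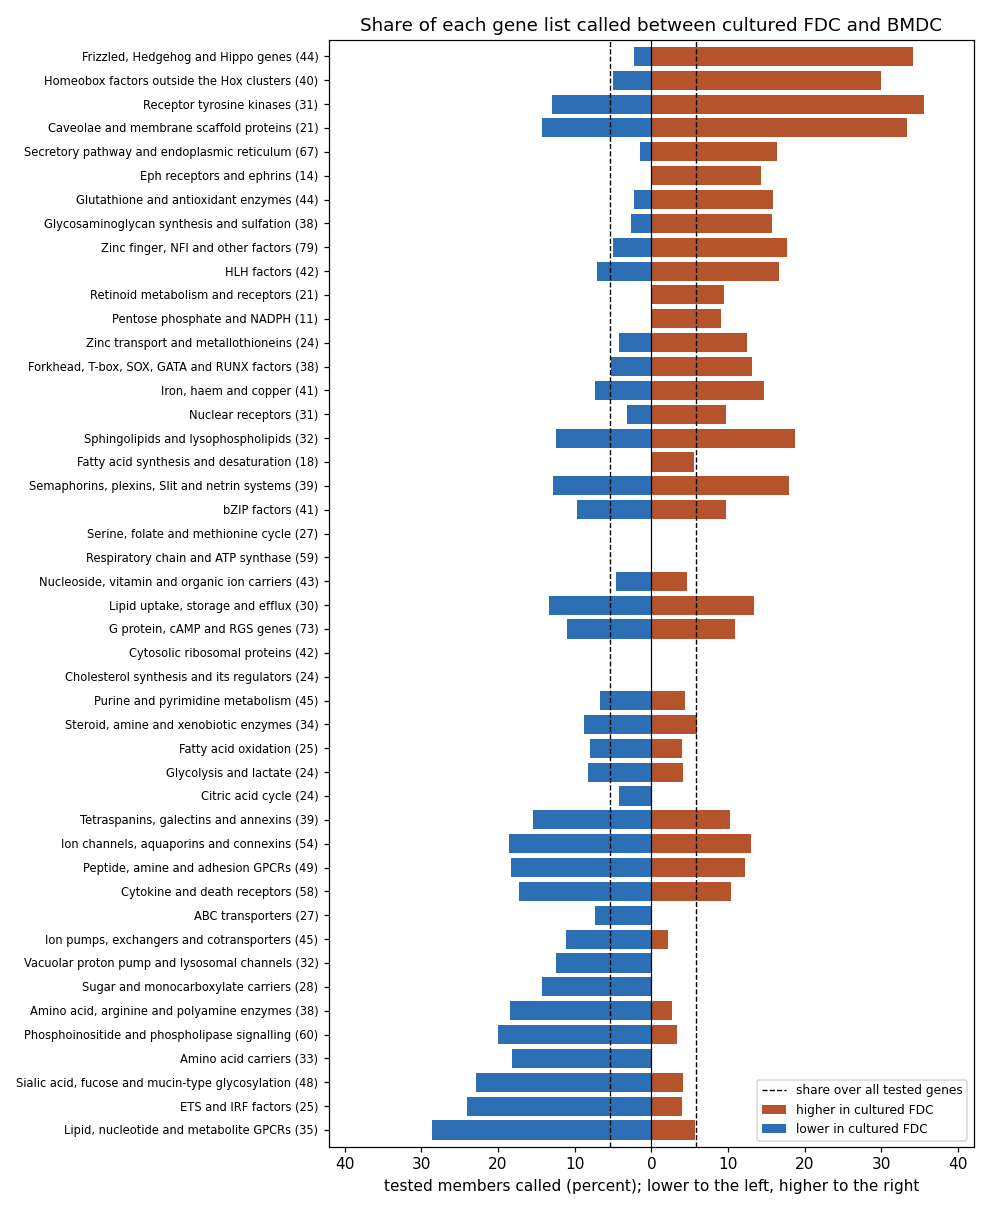
Percent of the tested members of each of 46 of the 47 gene lists that were called higher (right) or lower (left) in cultured FDC than in BMDC, with the number of tested members in brackets and, as dashed lines, the shares over all tested genes (5.87% higher and 5.40% lower). Frizzled, Hedgehog and Hippo genes stand at the top with 15 of 44 higher and 1 lower, and lipid, nucleotide and metabolite receptors at the bottom with 2 of 35 higher and 10 lower.

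In glycolysis and lactate metabolism 1 of 24 tested genes rose and 2 fell (12.5% called, near the 11.3% of all genes), and the list's median difference was -0.16. Pdk4, a kinase that inhibits pyruvate dehydrogenase, read 24.5 and 5.40 in BMDC and 1220 and 2140 in FDC. Both FDC arrays stood far above both BMDC arrays, and the difference was 5.89 ± 0.53 (SE, adjusted p = 0.00482). Hk3, the hexokinase of myeloid cells, read 2949 and 1890 in BMDC and 52.6 and 89.5 in FDC, a difference of -4.83 ± 0.46 (SE, adjusted p = 0.00530). Aldoc, an aldolase, was the remaining lower gene, at -2.83 ± 0.42 (SE, adjusted p = 0.0179), a call lost in each fit without 1 array other than BMDC array 1, with differences of -2.85 to -2.50 and adjusted p of 0.0505 to 0.0774. In the pentose phosphate and NADPH list Me1, the cytosolic malic enzyme that makes NADPH, was the 1 called gene of 11 (9.09%), and read 157 and 160 in BMDC and 3084 and 2458 in FDC, a difference of 4.0 ± 0.38 (SE, adjusted p = 0.00530). The BMDC arrays gave it nearly equal signals.

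In the citric acid cycle list the 1 called gene of 24 (4.17%) was Acod1, which turns cis-aconitate into the antimicrobial itaconate. Its signals were 4904 and 12989 in BMDC and 3.50 and 26.8 in FDC, a difference of -8.21 ± 0.67 (SE, adjusted p = 0.00401), and 1 FDC array lay below background. Of 59 tested subunits of the respiratory chain and ATP synthase 0 were called. The lowest differences were those of Cox5a at -1.14 (adjusted p = 0.165) and Ndufb8 at -1.0 (adjusted p = 0.290). The medians of the mitochondrial lists lay below that of all genes, at -0.52 for the citric acid cycle and -0.39 for the respiratory chain. Cytosolic ribosomal proteins, with 0 of 42 called, had a median of -0.27.

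Of 30 tested genes for lipid uptake, storage and efflux 4 rose and 4 fell (26.7% called), and with 1 array left out 1 to 2 were higher and 2 to 5 lower, the fewest of both without BMDC array 1. Cd36, the scavenger receptor that imports fatty acids and oxidised lipoprotein, read 30018 and 18288 in BMDC and 74.2 and 73.1 in FDC. Its FDC arrays were nearly equal and far below either BMDC array, and the difference was -8.06 ± 0.43 (SE, adjusted p = 0.00264). Mgll, the lipase that frees fatty acid from monoglyceride, read 2655 and 4213 in BMDC and 47.3 and 62.9 in FDC, a difference of -5.61 ± 0.43 (SE, adjusted p = 0.00356). Angptl4, a secreted inhibitor of lipoprotein lipase, ran the opposite way at 290 and 254 in BMDC and 18843 and 10124 in FDC, a difference of 5.60 ± 0.46 (SE, adjusted p = 0.00401), and the call holds for 1 of its 2 tested probe sets. Lipa, the lysosomal acid lipase, was also lower (-3.08, call lost in each fit without 1 array other than BMDC array 2, with differences of -3.10 to -2.24 and adjusted p of 0.0994 to 0.111). So was Apoc2, a lipoprotein lipase activator (-2.74, call lost without BMDC array 1 at -2.41, adjusted p = 0.0848 and without FDC array 1 at -2.64, adjusted p = 0.0641). Vldlr, a lipoprotein receptor, was higher (3.0, call lost without BMDC array 1 at 2.94, adjusted p = 0.0516). Lrp1, a large receptor of the same family, was higher too (2.10, call lost in each of the 4 fits without 1 array, with differences of 1.68 to 2.52 and adjusted p of 0.0747 to 0.190). Apod, a lipocalin, completed the higher genes (3.54, call lost without BMDC array 1 at 3.37, adjusted p = 0.113 and without BMDC array 2 at 3.71, adjusted p = 0.0919, and not tested without FDC array 1 or FDC array 2). Where a count is small, its members are named even if the rule for naming genes does not reach them, and those were chosen after their values were seen.

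Of 25 tested fatty acid oxidation genes 1 rose and 2 fell. Cpt1c, the carnitine palmitoyltransferase isoform best known from neurons, read 34.2 and 120 in BMDC and 1612 and 1781 in FDC, a difference of 4.41 ± 0.58 (SE, adjusted p = 0.0132), with no overlap between the cell types. Acox3, a peroxisomal oxidase, was lower (-3.09, call lost without BMDC array 1 at -2.84, adjusted p = 0.0633). Ppargc1b, a coactivator of mitochondrial genes, was the other lower gene (-4.07, call lost without BMDC array 1 at -3.94, adjusted p = 0.0539). Fads3, at 2.66 ± 0.40 (SE, adjusted p = 0.0187), a call lost in each of the 4 fits without 1 array, with differences of 2.40 to 2.92 and adjusted p of 0.0507 to 0.0857, was the only called gene among 18 for fatty acid synthesis and desaturation. Cholesterol synthesis had 0 of 24 genes called. Its extremes were Hsd17b7 at 1.78 (adjusted p = 0.140), of which 1 of 4 probe sets was called higher, and Dhcr7 at -1.72 (adjusted p = 0.145).

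Among 32 tested sphingolipid and lysophospholipid genes 6 rose and 4 fell (31.2% called), and with 1 array left out 1 to 5 were higher, the fewest without BMDC array 1 or FDC array 1, and 2 to 4 lower, the fewest without BMDC array 2. None of the 6 higher genes held its call in every fit. Pla2g7, the secreted hydrolase that inactivates platelet activating factor, read 28105 and 16666 in BMDC and 153 and 555 in FDC, a difference of -6.14 ± 0.69 (SE, adjusted p = 0.00836). Lpcat2, which makes platelet activating factor, read 2812 and 2966 in BMDC and 145 and 145 in FDC, a difference of -4.19 ± 0.37 (SE, adjusted p = 0.00453). The synthesis and the breakdown enzyme of this lipid mediator were therefore both lower in cultured FDC. Smpdl3b, an acid sphingomyelinase relative, was also lower (-3.55, call lost in each fit without 1 array other than BMDC array 1, with differences of -3.62 to -2.78 and adjusted p of 0.0599 to 0.0707). Gdpd3, a lysophospholipase D, completed the lower genes (-2.91, call lost without BMDC array 1 at -3.02, adjusted p = 0.0571 and without BMDC array 2 at -2.81, adjusted p = 0.0693).

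Of 38 tested amino acid, arginine and polyamine enzymes 7 fell and 1 rose (21.1% called), and the lower count ranged from 4 to 7 with 1 array left out, the fewest without BMDC array 2. Arg1, the cytosolic arginase, read 65953 and 36587 in BMDC and 247 and 355 in FDC. The mitochondrial isoenzyme Arg2 read 2170 and 1712 in BMDC and 18.6 and 46.1 in FDC. Both arginases fell, with differences of -7.31 ± 0.47 (SE, adjusted p = 0.00303) and -5.45 ± 0.46 (SE, adjusted p = 0.00437). Gatm, which takes arginine into creatine synthesis, read 1468 and 2605 in BMDC and 44.8 and 63.6 in FDC, a difference of -4.86 ± 0.46 (SE, adjusted p = 0.00530). Haao, an enzyme of the kynurenine route from tryptophan to NAD, read 511 and 1133 in BMDC and 3.60 and 15.9 in FDC, a difference of -5.07 ± 0.55 (SE, adjusted p = 0.00768), and 1 FDC array was below background. Csad, which makes hypotaurine from cysteine sulfinate, was the 1 higher gene at 2.05 ± 0.39 (SE, adjusted p = 0.0377), a call lost in each of the 4 fits without 1 array, with differences of 1.87 to 2.22 and adjusted p of 0.0727 to 0.161. Serine, folate and methionine enzymes had 0 of 27 called. The largest differences there were those of Cth at 3.28 (limma adjusted p = 0.0972) and Folr2 at -2.71 (limma adjusted p = 0.0781).

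Purine and pyrimidine metabolism had 2 of 45 tested genes higher and 3 lower (11.1% called, close to the share over all genes), and 1 lower without BMDC array 2. Adssl1, the adenylosuccinate synthase of muscle, read 5494 and 2649 in BMDC and 153 and 301 in FDC, a difference of -4.06 ± 0.56 (SE, adjusted p = 0.0150). Dpysl3, a dihydropyrimidinase relative that binds the cytoskeleton in growing axons, read 40 and 89.7 in BMDC and 1557 and 1145 in FDC, a difference of 4.17 ± 0.48 (SE, adjusted p = 0.00909). Ctps, the CTP synthase, was the other higher gene (3.40, call lost without BMDC array 1 at 3.58, adjusted p = 0.0533 and without BMDC array 2 at 3.22, adjusted p = 0.0707). Entpd1, a surface nucleotidase of immune cells, was lower (-3.52, call lost without BMDC array 2 at -3.21, adjusted p = 0.0554). Dck, a deoxynucleoside kinase, was lower too (-1.83, call lost in each of the 4 fits without 1 array, with differences of -2.0 to -1.65 and adjusted p of 0.0937 to 0.189).

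Of 44 tested glutathione and antioxidant genes 7 rose and 1 fell (18.2% called), and with 1 array left out 4 to 8 were higher, the fewest without BMDC array 2. Gpx8, a peroxidase anchored in the endoplasmic reticulum membrane, read 75.9 and 3.60 in BMDC and 14392 and 12230 in FDC. Gpx7, its soluble relative in the same compartment, read 108 and 90.0 in BMDC and 5178 and 6839 in FDC. The FDC arrays of both genes stood apart from the BMDC arrays, at 8.37 ± 0.81 (SE, adjusted p = 0.00557) and 5.72 ± 0.39 (SE, adjusted p = 0.00303). Msrb3, a methionine sulfoxide reductase, read 34.4 and 9.50 in BMDC and 2365 and 1699 in FDC, a difference of 5.89 ± 0.50 (SE, adjusted p = 0.00442). Gstm2, a glutathione transferase, read 321 and 164 in BMDC and 16220 and 7077 in FDC, a difference of 5.46 ± 0.59 (SE, adjusted p = 0.00744). Close relatives of Gstm2 may share the signal of its probe set, so this value is uncertain. Mgst2, which can make leukotriene C4, was the 1 lower gene at -2.63 ± 0.40 (SE, adjusted p = 0.0188), a call lost in each fit without 1 array other than FDC array 1, with differences of -2.68 to -2.38 and adjusted p of 0.0554 to 0.0802.

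Among 34 tested steroid, amine and xenobiotic enzymes 2 rose and 3 fell, a share of 14.7%. The lower count was 1 without BMDC array 1 or FDC array 1, and 4 were higher without FDC array 2. Aox1, aldehyde oxidase, read 67.7 and 22.9 in BMDC and 673 and 805 in FDC, a difference of 3.77 ± 0.51 (SE, adjusted p = 0.0143). Cyp4f18, which hydroxylates leukotriene B4, read 494 and 578 in BMDC and 6.30 and 17.7 in FDC, a difference of -4.42 ± 0.42 (SE, adjusted p = 0.00534). Cyp2j6, a cytochrome of fatty acid oxidation, was the other higher gene (3.80, not tested without FDC array 1 or FDC array 2). Cyp27a1, the sterol hydroxylase, was lower (-1.94, call lost in each of the 4 fits without 1 array, with differences of -2.13 to -1.76 and adjusted p of 0.0835 to 0.182). Aldh3b1, an aldehyde dehydrogenase, was lower as well (-2.76, call lost without BMDC array 1 at -2.47, adjusted p = 0.0783 and without FDC array 1 at -2.73, adjusted p = 0.0563). In the retinoid list the median difference was 1.32, with 2 of 21 tested genes higher and 0 lower (9.52% called, below the share over all genes). Cyp26b1, which degrades retinoic acid, read 4.0 and 57.6 in BMDC and 1017 and 1573 in FDC, so 1 BMDC array was at background and the other was not, and its difference was 5.14 ± 0.73 (SE, adjusted p = 0.0161). The retinoic acid receptor Rarb was the other at 2.90 ± 0.42 (SE, adjusted p = 0.0166), a call lost without BMDC array 1 at 2.60, adjusted p = 0.0712 and without FDC array 1 at 2.79, adjusted p = 0.0548.

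Metal reductases made up 3 of the higher genes in the iron, haem and copper list, in which 6 of 41 tested genes rose and 3 fell (22.0% called). With 1 array left out 4 to 6 were higher and 1 to 3 lower, the fewest of both without BMDC array 2. The STEAP proteins reduce iron and copper ions at endosomal and surface membranes. Steap1 read 56.4 and 21.3 in BMDC and 4603 and 5595 in FDC. Steap2 read 4.20 and 53.8 in BMDC and 3417 and 5239 in FDC. Steap4 read 7.70 and 9.0 in BMDC and 1357 and 561 in FDC. All 3 rose, by 6.67 ± 0.48 (SE, adjusted p = 0.00323), 6.91 ± 0.71 (SE, adjusted p = 0.00670) and 5.30 ± 0.53 (SE, adjusted p = 0.00628). Both BMDC arrays of Steap4 and 1 of Steap2 lay under background. Every tested probe set of the 3 genes was called higher, 2 of 2 for Steap1, 5 of 5 for Steap2 and 2 of 2 for Steap4. Slc11a1, the phagosomal iron and manganese exporter, went the other way at 3843 and 1650 in BMDC and 150 and 115 in FDC, a difference of -4.12 ± 0.53 (SE, adjusted p = 0.0123). Ltf, the granule protein lactoferrin, was also lower (-5.98, call lost in each fit without 1 array other than BMDC array 1, with differences of -6.94 to -4.37 and adjusted p of 0.0516 to 0.117). Alas1, the first enzyme of haem synthesis, was lower too (-2.11, call lost in each of the 4 fits without 1 array, with differences of -2.31 to -1.90 and adjusted p of 0.0810 to 0.147). Ltf is also a granulocyte marker, and that list's sums are given above.

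Of 24 tested zinc transport and metallothionein genes 3 rose and 1 fell (16.7% called), and 1 was higher without either BMDC array. Mt2, a metallothionein, was bright on every array and read 3241 and 4244 in BMDC and 41155 and 31756 in FDC, a difference of 3.28 ± 0.40 (SE, adjusted p = 0.0106). The zinc carrier Slc39a14 was higher (3.42, call lost without BMDC array 1 at 3.38, adjusted p = 0.0842 and without BMDC array 2 at 3.45, adjusted p = 0.0823). The zinc carrier Slc39a13 was higher too (2.23, call lost in each of the 4 fits without 1 array, with differences of 2.12 to 2.34 and adjusted p of 0.0585 to 0.111). Slc39a4, the zinc carrier of the gut, was lower (-4.94, call lost without BMDC array 1 at -4.92, adjusted p = 0.0575 and without BMDC array 2 at -4.96, adjusted p = 0.0576).

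Glycan enzymes differed in both directions. Of 38 tested genes for glycosaminoglycan synthesis and sulfation 6 rose and 1 fell (18.4% called), and the higher count ranged from 2 to 4 with 1 array left out, the fewest without BMDC array 1. Sulf1, a secreted enzyme that trims sulfate from heparan sulfate, read 4.40 and 7.20 in BMDC and 8424 and 7910 in FDC. Both BMDC arrays lay under background and the FDC arrays agreed closely, and the difference was 8.68 ± 0.37 (SE, adjusted p = 0.00264). Hs6st2, which adds sulfate to the same chains, read 48.4 and 62.8 in BMDC and 3527 and 3132 in FDC, a difference of 5.59 ± 0.38 (SE, adjusted p = 0.00303). Chst7, a chondroitin sulfotransferase, was the 1 lower gene at -3.68 ± 0.69 (SE, adjusted p = 0.0353), a call lost without BMDC array 2 at -2.87, adjusted p = 0.0887 and without FDC array 1 at -3.17, adjusted p = 0.0999.

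Enzymes of sialic acid, fucose and mucin-type glycosylation were called mostly lower, with 11 of 48 tested genes called lower and 2 higher (27.1% called). The lower count fell to 3 without BMDC array 2, 4 without BMDC array 1 and 7 without either FDC array. St8sia4, a polysialyltransferase, read 3568 and 2998 in BMDC and 59.3 and 62.1 in FDC, a difference of -5.45 ± 0.37 (SE, adjusted p = 0.00303). Galnt6, which starts mucin-type chains, read 823 and 533 in BMDC and 26.0 and 49.0 in FDC, a difference of -3.75 ± 0.46 (SE, adjusted p = 0.0105). Its relative Galnt9 read 623 and 510 in BMDC and 11.6 and 34.1 in FDC, a difference of -4.03 ± 0.47 (SE, adjusted p = 0.00899). Cmah, the hydroxylase that makes N-glycolylneuraminic acid, was higher and read 33.0 and 46.9 in BMDC and 869 and 734 in FDC, a difference of 3.92 ± 0.39 (SE, adjusted p = 0.00616). B3gnt9, a glycosyltransferase, read 61.0 and 18.7 in BMDC and 1366 and 740 in FDC, a difference of 4.36 ± 0.58 (SE, adjusted p = 0.0136).

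Of 33 tested amino acid carriers 6 fell and 0 rose (18.2% called), with 3 to 5 lower when 1 array was left out, the fewest without BMDC array 1. Slc6a13, a GABA carrier, read 1139 and 1157 in BMDC and 8.10 and 60.2 in FDC. Slc6a12, which carries betaine and GABA, read 460 and 356 in BMDC and 15.4 and 8.10 in FDC. Slc6a4, the serotonin transporter, read 922 and 389 in BMDC and 16.2 and 7.40 in FDC. The 3 genes of this sodium-coupled family lay under background on 1 FDC array each, with differences of -4.83 ± 0.64 (SE, adjusted p = 0.0136), -4.03 ± 0.40 (SE, adjusted p = 0.00621) and -4.58 ± 0.54 (SE, adjusted p = 0.00976).

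Of 28 tested sugar and monocarboxylate carriers 4 fell and 0 rose (14.3% called), and 1 was lower without either BMDC array or FDC array 2. None of the 4 held its call in every fit. Slc2a6, a glucose carrier relative, was one (-3.86, call lost without BMDC array 2 at -3.58, adjusted p = 0.0511). Slc37a2, a sugar phosphate carrier, was another (-4.11, call lost in each fit without 1 array other than BMDC array 2, with differences of -4.37 to -3.02 and adjusted p of 0.0560 to 0.104). Its relative Slc37a1 was lower as well (-2.84, call lost without BMDC array 1 at -3.18, adjusted p = 0.0722 and without FDC array 2 at -2.29, adjusted p = 0.0825, and not tested without BMDC array 2). Slc16a10, which carries aromatic amino acids, was the last (-2.46, call lost in each of the 4 fits without 1 array, with differences of -2.98 to -1.94 and adjusted p of 0.0510 to 0.141). Nucleoside, vitamin and organic ion carriers had 2 of 43 tested genes higher and 2 lower, and 9.30% called is below the share over all genes. The prostaglandin carrier Slco2a1 was higher (4.65, call lost in each fit without 1 array other than FDC array 1, with differences of 3.43 to 5.41 and adjusted p of 0.0585 to 0.133). The choline carrier relative Slc44a2 was higher too (1.87, call lost in each of the 4 fits without 1 array, with differences of 1.71 to 2.03 and adjusted p of 0.0810 to 0.171). Slc22a23 was lower (-3.60, call lost without BMDC array 1 at -3.56, adjusted p = 0.0674 and without BMDC array 2 at -3.64, adjusted p = 0.0657). Slc27a3, of the fatty acid transport family, was lower too (-2.52, call lost in each of the 4 fits without 1 array, with differences of -2.91 to -2.13 and adjusted p of 0.0563 to 0.119). Among 27 tested ABC transporters 2 fell and 0 rose (7.41% called, below the share over all genes). Abcg1, which exports cholesterol, read 2171 and 2325 in BMDC and 120 and 176 in FDC, a difference of -3.82 ± 0.40 (SE, adjusted p = 0.00691), and the call holds for 1 of its 2 tested probe sets. Abca7 was also lower, at -2.35 ± 0.37 (SE, adjusted p = 0.0214), a call lost in each of the 4 fits without 1 array, with differences of -2.44 to -2.26 and adjusted p of 0.0602 to 0.0985.

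The vacuolar proton pump list had the lowest median of the transport lists, -0.92, with 4 of 32 tested genes lower and 0 higher (12.5% called, near the share over all genes). The lower count was 1 without BMDC array 1 or FDC array 1 and 2 without either of the others. Atp6v0d2, the subunit isoform known from osteoclasts and macrophages, read 13418 and 3486 in BMDC and 66.1 and 57.8 in FDC, a difference of -6.49 ± 0.70 (SE, adjusted p = 0.00744). The subunit Atp6v1b2 was -2.10 ± 0.38 (SE, adjusted p = 0.0311), a call lost in each of the 4 fits without 1 array, with differences of -2.24 to -1.95 and adjusted p of 0.0708 to 0.123. The subunit Atp6v0a1 was -1.74 ± 0.37 (SE, adjusted p = 0.0488), a call lost in each of the 4 fits without 1 array, with differences of -1.80 to -1.67 and adjusted p of 0.118 to 0.193. The lysosomal channel Tpcn2 was the remaining lower gene (-2.15, call lost in each fit without 1 array other than FDC array 2, with differences of -2.16 to -1.72 and adjusted p of 0.129 to 0.158). Macrophage markers fell in the same arrays, as given above, and their part in the Atp6v0d2 difference was not tested. Of 45 other ion pumps, exchangers and cotransporters 5 fell and 1 rose (13.3% called), all of which lost the call without some array. The lower count was 1 without BMDC array 1 and 2 without BMDC array 2, and 4 were higher without FDC array 2. The calcium pump Atp2a3 was lower (-3.46, call lost without BMDC array 1 at -2.91, adjusted p = 0.0557 and without FDC array 2 at -3.31, adjusted p = 0.0518). The phospholipid flippase Atp8b4 was lower (-3.15, call lost without BMDC array 2 at -2.52, adjusted p = 0.130 and without FDC array 1 at -2.60, adjusted p = 0.113). Its relative Atp8a1 was lower too (-2.88, call lost without BMDC array 1 at -2.60, adjusted p = 0.0698). Slc9a3r1, a scaffold of the sodium proton exchanger, was lower (-3.06, call lost without BMDC array 1 at -3.03, adjusted p = 0.0813 and without BMDC array 2 at -3.08, adjusted p = 0.0805). The carbonic anhydrase Car9 was the last (-2.09, call lost in each of the 4 fits without 1 array, with differences of -2.46 to -1.73 and adjusted p of 0.0808 to 0.180). The bicarbonate cotransporter Slc4a4 was the rise (2.86, call lost in each fit without 1 array other than FDC array 2, with differences of 2.39 to 3.08 and adjusted p of 0.0708 to 0.103).

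Ion channels were called in both directions, with 7 of 54 tested genes higher and 10 lower (31.5% called). With 1 array left out 4 to 6 were higher, the fewest without BMDC array 2 or either FDC array, and 7 to 10 lower. Kcnn4, the calcium-activated potassium channel of lymphoid and myeloid cells, read 8335 and 8644 in BMDC and 203 and 268 in FDC, a difference of -5.10 ± 0.38 (SE, adjusted p = 0.00347). Hvcn1, the proton channel that supports the oxidative burst, read 8933 and 4155 in BMDC and 198 and 240 in FDC, a difference of -4.72 ± 0.50 (SE, adjusted p = 0.00730). Kcnk6, a background potassium channel, read 3870 and 7516 in BMDC and 377 and 275 in FDC, a difference of -4.01 ± 0.49 (SE, adjusted p = 0.0104). Ryr1, the calcium release channel, read 1355 and 1364 in BMDC and 57.0 and 3.70 in FDC, a difference of -5.27 ± 0.71 (SE, adjusted p = 0.0141), with 1 FDC array below background. On the FDC side Gja1, a connexin of gap junctions, read 95.3 and 17.3 in BMDC and 3009 and 2533 in FDC, a difference of 5.56 ± 0.66 (SE, adjusted p = 0.00994). Cacna2d1, an auxiliary calcium channel subunit, read 2.90 and 4.1 in BMDC and 812 and 1160 in FDC, with both BMDC arrays under background, and the difference was 5.80 ± 0.40 (SE, adjusted p = 0.00303). Kcne4, a potassium channel accessory subunit, read 11.1 and 17.5 in BMDC and 3665 and 752 in FDC, so the FDC arrays differed from each other several-fold, and its difference was 5.89 ± 0.79 (SE, adjusted p = 0.0138).

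**Figure D2:**
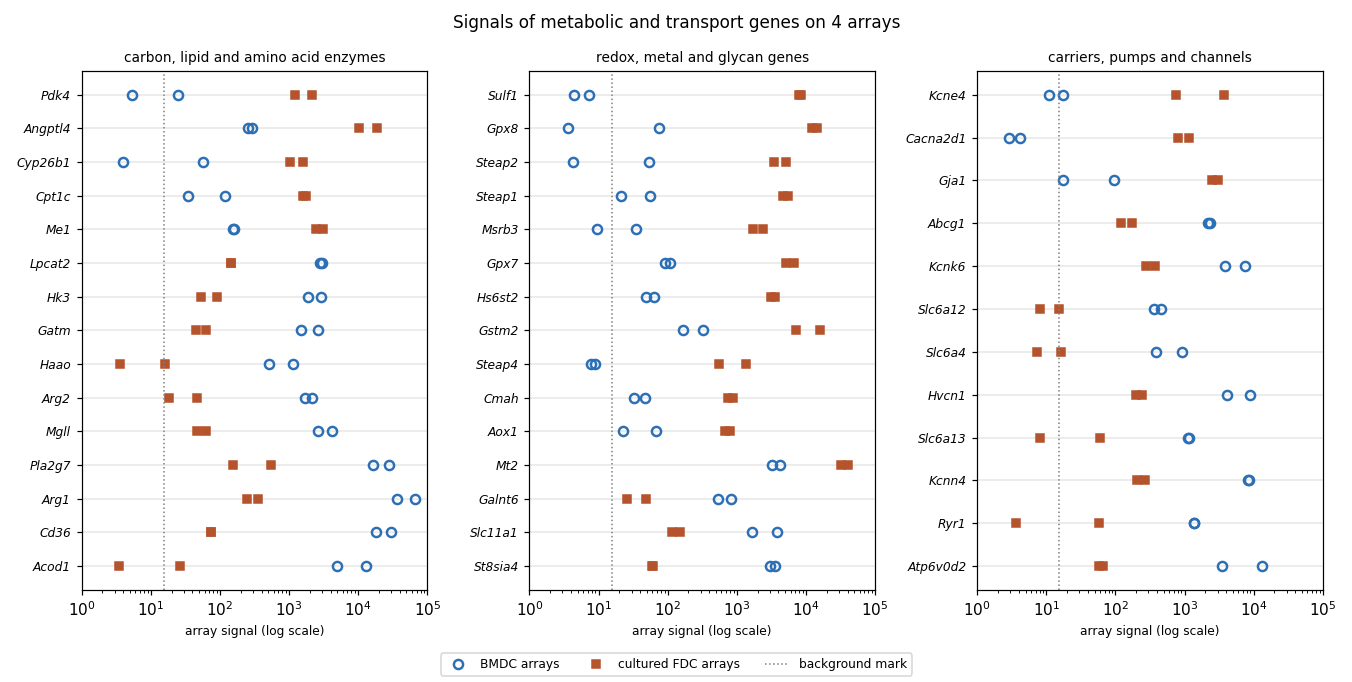
Signal on each of 4 arrays (log scale) for named metabolic, redox, metal, glycan, carrier and channel genes, with open circles for the 2 BMDC arrays, squares for the 2 cultured FDC arrays and a dotted line at the highest background mark of 15.4. The circles and the squares of each gene do not overlap, and Steap4, Sulf1 and Cacna2d1 have both BMDC arrays left of the line.

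Of 31 tested receptor tyrosine kinases 11 rose and 4 fell (48.4% called), and the list's median difference was 1.78. The higher count was 4 without FDC array 1, 6 without FDC array 2, 7 without BMDC array 1 and 10 without BMDC array 2, and the lower count 1 without BMDC array 1 or either FDC array. Csf1r, the receptor of macrophage growth factors, read 40660 and 26995 in BMDC and 168 and 243 in FDC, a difference of -7.26 ± 0.43 (SE, adjusted p = 0.00272). Pdgfra, the receptor through which platelet-derived growth factor acts on mesenchymal cells, read 54.3 and 5.90 in BMDC and 4883 and 2199 in FDC, a difference of 6.47 ± 0.74 (SE, adjusted p = 0.00876). The 2 receptors are structural relatives and differed in opposite directions. Ddr2, a receptor for fibrillar collagen, read 53.9 and 74.7 in BMDC and 5494 and 2904 in FDC, a difference of 5.69 ± 0.47 (SE, adjusted p = 0.00415). Egfr, the epidermal growth factor receptor, read 154 and 120 in BMDC and 3176 and 2217 in FDC, a difference of 4.15 ± 0.41 (SE, adjusted p = 0.00607). Ptk7, a catalytically inactive receptor of planar polarity signalling, read 12 and 2.70 in BMDC and 626 and 619 in FDC, a difference of 4.92 ± 0.41 (SE, adjusted p = 0.00421), with both BMDC arrays under background. Met, the hepatocyte growth factor receptor, was lower (-4.24, call lost in each fit without 1 array other than BMDC array 2, with differences of -5.0 to -3.17 and adjusted p of 0.0505 to 0.125). Mertk, which takes up apoptotic cells, was lower (-4.41, call lost in each fit without 1 array other than BMDC array 2, with differences of -5.12 to -3.35 and adjusted p of 0.0512 to 0.102). Erbb3, a neuregulin receptor, was lower too (-2.11, call lost in each of the 4 fits without 1 array, with differences of -2.29 to -1.93 and adjusted p of 0.0634 to 0.140).

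Among 14 tested Eph receptors and ephrins 2 rose and 0 fell (14.3% called). Ephb4 read 12.6 and 11.4 in BMDC and 511 and 411 in FDC, a difference of 4.17 ± 0.38 (SE, adjusted p = 0.00482), with both BMDC arrays under background. The ligand Efna4 was the other, at 2.58 ± 0.43 (SE, adjusted p = 0.0253), a call lost in each of the 4 fits without 1 array, with differences of 2.23 to 2.93 and adjusted p of 0.0554 to 0.106.

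Of 39 tested semaphorin, plexin, Slit and netrin genes 7 rose and 5 fell (30.8% called). Of the 7 higher genes 4 were secreted ligands (Sema3a, Sema3c, Slit2 and Slit3), beside the receptors Neo1 and Unc5b and the intracellular Dpysl3 described above. Sema3a was one of those that lost the call (4.66, call lost without BMDC array 1 at 4.40, adjusted p = 0.0811 and without BMDC array 2 at 4.91, adjusted p = 0.0640). Unc5b was the other (2.39, call lost in each fit without 1 array other than FDC array 1, with differences of 1.88 to 2.55 and adjusted p of 0.105 to 0.159). Sema3c, a secreted semaphorin, read 27.6 and 3.40 in BMDC and 5518 and 2936 in FDC, a difference of 7.22 ± 0.60 (SE, adjusted p = 0.00404). Slit3, a ligand of the Robo receptors, read 45.5 and 4.20 in BMDC and 8941 and 2691 in FDC, a difference of 7.21 ± 0.83 (SE, adjusted p = 0.00876). Its relative Slit2 read 34.8 and 69.5 in BMDC and 1816 and 4025 in FDC, a difference of 5.41 ± 0.56 (SE, adjusted p = 0.00680). The 5 lower genes were membrane-bound semaphorins and plexins. Sema4a read 5231 and 9409 in BMDC and 82.3 and 4.60 in FDC, a difference of -7.37 ± 0.85 (SE, adjusted p = 0.00892). Sema4d read 3663 and 2724 in BMDC and 232 and 324 in FDC, a difference of -3.46 ± 0.41 (SE, adjusted p = 0.00986). The plexin receptor Plxnc1 read 2550 and 1060 in BMDC and 88.2 and 60.7 in FDC, a difference of -4.24 ± 0.55 (SE, adjusted p = 0.0124). Plxnd1 read 7471 and 3967 in BMDC and 368 and 319 in FDC, a difference of -3.93 ± 0.46 (SE, adjusted p = 0.00957). Sema6d was the remaining lower gene (-2.65, call lost in each fit without 1 array other than FDC array 1, with differences of -2.93 to -2.02 and adjusted p of 0.102 to 0.169).

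Receptors for lipids, nucleotides and metabolites had 10 of 35 tested genes lower, 2 higher (34.3% called) and a median of -1.69. Gpr84, a receptor for medium-chain fatty acids, read 1931 and 4886 in BMDC and 2.10 and 48.8 in FDC, a difference of -6.59 ± 0.81 (SE, adjusted p = 0.0108). Cnr2, the cannabinoid receptor of immune cells, read 814 and 873 in BMDC and 22.4 and 8.30 in FDC, a difference of -4.90 ± 0.42 (SE, adjusted p = 0.00443). Ltb4r1, the receptor for leukotriene B4, read 1700 and 3656 in BMDC and 48.2 and 116 in FDC, a difference of -4.80 ± 0.59 (SE, adjusted p = 0.0109). Gpr183, the oxysterol receptor that places dendritic cells and B cells in lymphoid organs, read 2714 and 1751 in BMDC and 134 and 129 in FDC, a difference of -3.91 ± 0.41 (SE, adjusted p = 0.00713). Lpar1, the lysophosphatidic acid receptor of mesenchymal cells, was the exception at 80.7 and 73.8 in BMDC and 4965 and 4514 in FDC. Its FDC arrays lay far above its BMDC arrays on all 3 tested probe sets, and the difference was 5.70 ± 0.37 (SE, adjusted p = 0.00303). S1pr3, a receptor for sphingosine phosphate, was also higher, at 3.78 ± 0.77 (SE, adjusted p = 0.0438), a call lost in each fit without 1 array other than BMDC array 2, with differences of 2.70 to 3.98 and adjusted p of 0.0687 to 0.120.

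Peptide, amine and adhesion receptors had 6 of 49 tested genes higher and 9 lower (30.6% called). With 1 array left out 3 to 7 were higher, the fewest without FDC array 1, and 4 to 9 lower, the fewest without either BMDC array. Fpr2, a formyl peptide receptor of phagocytes, read 4066 and 11753 in BMDC and 4.0 and 59.2 in FDC, a difference of -7.57 ± 0.85 (SE, adjusted p = 0.00837). C3ar1, the receptor for the complement peptide C3a, read 7402 and 2389 in BMDC and 27.6 and 87.6 in FDC, a difference of -6.02 ± 0.73 (SE, adjusted p = 0.0105). Adgre1, the F4/80 antigen, read 8197 and 8172 in BMDC and 87.7 and 144 in FDC, a difference of -6.01 ± 0.41 (SE, adjusted p = 0.00303). Adgra2, an adhesion receptor that acts with Wnt ligands, read 48.8 and 8.20 in BMDC and 1852 and 1188 in FDC, a difference of 5.32 ± 0.62 (SE, adjusted p = 0.00907). Fpr2 and C3ar1 are also found on granulocytes, whose markers fell on the same arrays, and that part was not tested.

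Of 58 tested cytokine and death receptors 6 rose and 10 fell (27.6% called), and the higher count was 3 without BMDC array 1. The alpha chain of the receptor for granulocyte-macrophage colony-stimulating factor, Csf2ra, read 13940 and 8668 in BMDC and 332 and 220 in FDC, a difference of -5.27 ± 0.45 (SE, adjusted p = 0.00442). The beta chain Csf2rb read 11265 and 15406 in BMDC and 405 and 275 in FDC, a difference of -5.24 ± 0.42 (SE, adjusted p = 0.00397). Its near-identical paralog Csf2rb2 read 4944 and 4489 in BMDC and 125 and 161 in FDC, a difference of -4.92 ± 0.38 (SE, adjusted p = 0.00361), and the probe sets of the pair may share signal, so both values are uncertain. Csf3r, the granulocyte colony-stimulating factor receptor, read 1098 and 1192 in BMDC and 16.2 and 15.5 in FDC, a difference of -5.27 ± 0.37 (SE, adjusted p = 0.00310). Tnfrsf13b, which binds the B cell survival factors BAFF and APRIL, read 2006 and 3795 in BMDC and 25.1 and 84.7 in FDC, a difference of -5.48 ± 0.61 (SE, adjusted p = 0.00823). On the FDC side Osmr, the oncostatin M receptor, read 42.8 and 10.1 in BMDC and 6839 and 3916 in FDC, a difference of 7.12 ± 0.58 (SE, adjusted p = 0.00400). Il17rc, a subunit of the interleukin-17 receptor, read 9.80 and 14.2 in BMDC and 1550 and 1166 in FDC, with both BMDC arrays under background, and the difference was 5.70 ± 0.39 (SE, adjusted p = 0.00303). Ghr, the growth hormone receptor, read 112 and 62.3 in BMDC and 2785 and 3887 in FDC, a difference of 5.07 ± 0.45 (SE, adjusted p = 0.00475). Ltbr, the lymphotoxin beta receptor on which follicular FDC depend, read 1422 and 1108 in BMDC and 3493 and 1323 in FDC and was not called, at 0.77 (adjusted p = 0.493). Tnfrsf1a, the tumour necrosis factor receptor likewise needed for FDC networks, was 1.29 (adjusted p = 0.226).

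Of 60 tested phosphoinositide and phospholipase genes 12 fell and 2 rose (23.3% called), with 7 to 12 lower when 1 array was left out, the fewest without BMDC array 2. Pik3ap1, an adaptor that carries phosphoinositide 3-kinase to receptors, read 3726 and 2586 in BMDC and 4.70 and 7.60 in FDC. Both FDC arrays were under background, and the difference was -7.26 ± 0.40 (SE, adjusted p = 0.00264). Pik3cg, the catalytic subunit activated by G proteins, read 2883 and 4250 in BMDC and 73.4 and 48.9 in FDC, a difference of -5.56 ± 0.43 (SE, adjusted p = 0.00357). Its regulatory partners Pik3r5 and Pik3r6 were lower, at -4.20 ± 0.46 (SE, adjusted p = 0.00778) and -3.59 ± 0.44 (SE, adjusted p = 0.0111). The catalytic gamma subunit and both of its partners were thus among the 12. Prkcb, a protein kinase C, read 6956 and 3093 in BMDC and 92.3 and 91.0 in FDC, a difference of -5.46 ± 0.51 (SE, adjusted p = 0.00515). Pld4, a nuclease of the phospholipase D family, read 3691 and 4082 in BMDC and 43.6 and 6.2 in FDC, a difference of -6.83 ± 0.59 (SE, adjusted p = 0.00442), with 1 FDC array under background. The regulatory subunit Pik3r3 was higher (2.35, call lost in each fit without 1 array other than FDC array 2, with differences of 2.09 to 2.42 and adjusted p of 0.0837 to 0.110). The phospholipase C Plcd3 was the other higher gene (2.30, call lost in each of the 4 fits without 1 array, with differences of 2.18 to 2.41 and adjusted p of 0.0567 to 0.109).

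G protein, cAMP and RGS genes had 8 of 73 tested members higher and 8 lower (21.9% called), with 5 to 7 higher, the fewest without either BMDC array or FDC array 1, and 5 to 8 lower, the fewest without BMDC array 2 or FDC array 1. Gna15, a G alpha subunit of blood cells, read 1952 and 1867 in BMDC and 17.8 and 3.0 in FDC, a difference of -6.36 ± 0.46 (SE, adjusted p = 0.00323). Its close relative Gna11, which is made by most tissues, was higher at 2.28 ± 0.45 (SE, adjusted p = 0.0407), a call lost in each of the 4 fits without 1 array, with differences of 1.93 to 2.63 and adjusted p of 0.0524 to 0.160. Arrb2, an arrestin that ends receptor signalling, read 4122 and 4727 in BMDC and 128 and 210 in FDC, a difference of -4.63 ± 0.42 (SE, adjusted p = 0.00482). The arrestin Arrb1 read 2519 and 2584 in BMDC and 211 and 157 in FDC, a difference of -3.71 ± 0.38 (SE, adjusted p = 0.00690). Grk3, a kinase that recruits them, read 972 and 1088 in BMDC and 37.1 and 52.9 in FDC, a difference of -4.15 ± 0.39 (SE, adjusted p = 0.00509). On the FDC side Akap12, an anchor of protein kinase A, read 41.4 and 63.8 in BMDC and 3350 and 3820 in FDC, a difference of 5.77 ± 0.40 (SE, adjusted p = 0.00303). A further anchor, Akap2, read 47.9 and 90.8 in BMDC and 1463 and 4092 in FDC, a difference of 4.93 ± 0.62 (SE, adjusted p = 0.0118). Rgs16, which speeds G protein turnoff, read 88.6 and 108 in BMDC and 2172 and 4950 in FDC, a difference of 4.88 ± 0.52 (SE, adjusted p = 0.00725).

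Rac2, the Rac protein of blood cells, read 13929 and 14538 in BMDC and 779 and 692 in FDC, a difference of -4.25 ± 0.37 (SE, adjusted p = 0.00445). Dock2, an exchange factor for Rac in leukocyte migration, read 3682 and 4307 in BMDC and 101 and 79.5 in FDC, a difference of -5.26 ± 0.38 (SE, adjusted p = 0.00323). Was, the Wiskott-Aldrich protein that drives actin branching, read 1942 and 1940 in BMDC and 103 and 80.1 in FDC, a difference of -4.22 ± 0.38 (SE, adjusted p = 0.00479). The GTPase-activating proteins Arhgap25 and Arhgap30 were lower, at -5.12 ± 0.59 (SE, adjusted p = 0.00876) and -4.46 ± 0.53 (SE, adjusted p = 0.00981). On the FDC side Arhgap29, a GTPase-activating protein, read 122 and 30.3 in BMDC and 9491 and 4754 in FDC, a difference of 6.44 ± 0.68 (SE, adjusted p = 0.00723). The exchange factors Arhgef25 and Arhgef17 rose by 4.87 ± 0.45 (SE, adjusted p = 0.00506) and 3.49 ± 0.37 (SE, adjusted p = 0.00732).

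**Figure D3:**
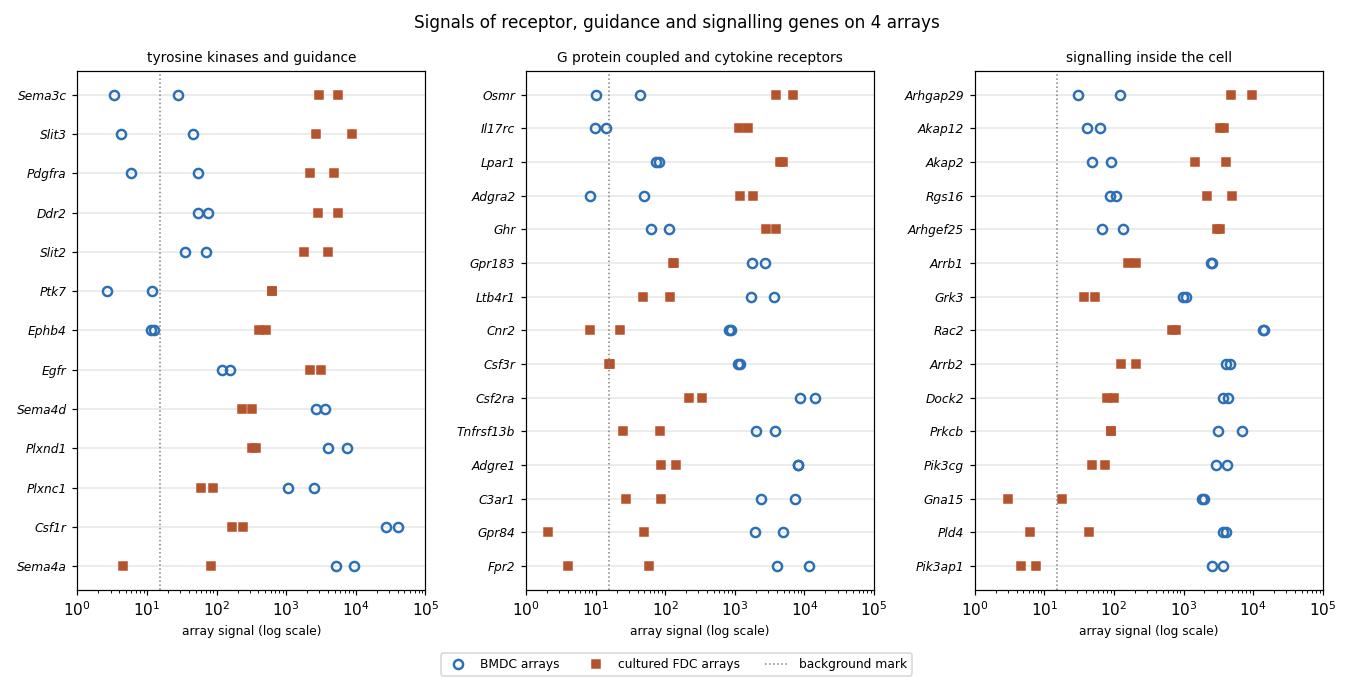
Signal on each of 4 arrays (log scale) for named receptor, guidance and signalling genes, with open circles for the 2 BMDC arrays, squares for the 2 cultured FDC arrays and a dotted line at the highest background mark of 15.4. Sema3c, Osmr and Arhgap29 head their panels and Sema4a, Fpr2 and Pik3ap1 end them, and circles and squares do not overlap in any row.

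The Hippo pathway controls whether the coactivators YAP and TAZ enter the nucleus, where they act through the DNA-binding TEAD proteins. Of 44 tested Frizzled, Hedgehog and Hippo genes 15 rose and 1 fell (36.4% called), the median difference was 2.33, and the higher count ranged from 11 without BMDC array 2 to 15. Yap1 read 125 and 58.4 in BMDC and 4780 and 4038 in FDC, a difference of 5.46 ± 0.47 (SE, adjusted p = 0.00442). Wwtr1, which encodes TAZ, read 42.4 and 49.5 in BMDC and 4331 and 3397 in FDC, a difference of 6.0 ± 0.38 (SE, adjusted p = 0.00303). Both coactivators were higher on each FDC array than on either BMDC array. Their partner Tead1 read 62.8 and 77.4 in BMDC and 2449 and 1928 in FDC, a difference of 4.70 ± 0.39 (SE, adjusted p = 0.00403), with 1 of 2 tested probe sets called. Fat1, a giant cadherin upstream of the pathway, read 54.4 and 87.9 in BMDC and 6273 and 6415 in FDC, a difference of 6.25 ± 0.40 (SE, adjusted p = 0.00303). The angiomotins Amotl2 and Amotl1, which bind YAP, rose by 5.44 ± 0.64 (SE, adjusted p = 0.00976) and 4.39 ± 0.49 (SE, adjusted p = 0.00809), and the TEAD cofactor Vgll3 by 5.03 ± 0.38 (SE, adjusted p = 0.00348). Fzd2, a Wnt receptor, read 28.6 and 55.8 in BMDC and 3004 and 2612 in FDC, a difference of 5.68 ± 0.43 (SE, adjusted p = 0.00348). The 1 lower gene was Stk4, an upstream kinase of the pathway that is abundant in leukocytes, at -2.35 ± 0.39 (SE, adjusted p = 0.0242), a call lost in each of the 4 fits without 1 array, with differences of -2.55 to -2.15 and adjusted p of 0.0672 to 0.110.

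The letters CATTCC, the core bound by TEAD proteins, were sought on both strands in the 250 bases before the start site of each gene (RefSeq, build GRCm38.p6, the first window listed for a gene). They were found in 10.4% of the windows of 10307 tested genes, in 15.6% of the windows of 558 higher genes and in 11.6% of those of 544 lower genes. When a match in any listed window was counted, the shares were 12.7%, 17.9% and 15.1%. Of the 12 higher genes of the Frizzled, Hedgehog and Hippo list that have a window, 7 held the letters. A match describes these letters and is no evidence of binding. The windows of 3 of those genes are shown because their products are YAP, TAZ and a YAP-binding protein, with the matching letters, or GGAATG where the match is on the other strand, in capitals and the sequence written 5′ to 3′ on the gene's strand. They lie at chr9:8004597-8004846 on the minus strand for Yap1, chr3:57575911-57576160 on the minus strand for Wwtr1 and chr9:102717554-102717803 on the plus strand for Amotl2.
Yap1: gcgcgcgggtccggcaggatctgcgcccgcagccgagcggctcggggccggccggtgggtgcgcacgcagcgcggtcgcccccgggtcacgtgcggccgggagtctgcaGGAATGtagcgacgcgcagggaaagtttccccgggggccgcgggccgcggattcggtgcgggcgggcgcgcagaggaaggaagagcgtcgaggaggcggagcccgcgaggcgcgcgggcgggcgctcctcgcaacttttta
Wwtr1: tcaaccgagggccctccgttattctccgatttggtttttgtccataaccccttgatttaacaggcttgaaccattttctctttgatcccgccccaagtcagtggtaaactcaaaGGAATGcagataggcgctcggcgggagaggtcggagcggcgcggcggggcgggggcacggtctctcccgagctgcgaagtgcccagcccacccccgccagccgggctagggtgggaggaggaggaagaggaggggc
Amotl2: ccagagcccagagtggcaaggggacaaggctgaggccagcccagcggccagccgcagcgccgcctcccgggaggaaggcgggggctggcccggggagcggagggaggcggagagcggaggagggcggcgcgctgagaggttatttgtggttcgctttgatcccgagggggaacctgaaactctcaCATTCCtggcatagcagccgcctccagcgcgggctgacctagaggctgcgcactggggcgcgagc

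Caveolae are small pits of the surface membrane formed by caveolins and cavins. Of 21 tested genes for caveolae and membrane scaffolds 7 rose and 3 fell (47.6% called), with 4 to 7 higher when 1 array was left out, the fewest without BMDC array 2. Cav1, the main caveolin, read 144 and 143 in BMDC and 2039 and 4172 in FDC, a difference of 4.22 ± 0.48 (SE, adjusted p = 0.00871). Cavin3 read 23.7 and 85.7 in BMDC and 4097 and 1519 in FDC, a difference of 5.35 ± 0.71 (SE, adjusted p = 0.0136). Ehd2, an ATPase at the neck of caveolae, read 88.6 and 91.1 in BMDC and 2931 and 3771 in FDC, a difference of 5.0 ± 0.38 (SE, adjusted p = 0.00354). None of the 3 lower genes kept its call in any fit without 1 array, and none is a caveolin or cavin. Ehd4 is a membrane-shaping ATPase (-2.50, call lost in each of the 4 fits without 1 array, with differences of -2.82 to -2.18 and adjusted p of 0.0522 to 0.122). Cmtm7 spans the membrane (-1.99, call lost in each of the 4 fits without 1 array, with differences of -2.20 to -1.78 and adjusted p of 0.0681 to 0.156). So does its relative Cmtm6 (-1.77, call lost in each of the 4 fits without 1 array, with differences of -1.82 to -1.73 and adjusted p of 0.115 to 0.179). Fibroblast and mural markers rose on the same arrays, as given above, and the part of such cells in the caveolar and Hippo differences was not tested.

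Of 40 tested homeobox factors outside the Hox clusters 12 rose and 2 fell (35.0% called), and the higher count dropped to 3 without BMDC array 1, 5 without FDC array 1 and 6 without BMDC array 2 or FDC array 2. Prrx1, a factor of limb and connective tissue mesenchyme, read 50.6 and 23.8 in BMDC and 8380 and 8874 in FDC. The FDC arrays were close to each other, and the difference was 7.44 ± 0.43 (SE, adjusted p = 0.00264). Shox2, another mesenchymal homeobox factor, read 15.8 and 8.70 in BMDC and 1898 and 1245 in FDC, a difference of 5.89 ± 0.43 (SE, adjusted p = 0.00323). The lower genes both act in blood cell development. Hlx read 1346 and 969 in BMDC and 56.3 and 31.1 in FDC, a difference of -4.36 ± 0.44 (SE, adjusted p = 0.00636). Hhex read 1628 and 1045 in BMDC and 79.5 and 43.3 in FDC, a difference of -4.17 ± 0.47 (SE, adjusted p = 0.00814).

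Of 38 tested forkhead, T-box, SOX, GATA and RUNX factors 5 rose and 2 fell (18.4% called), and 3 were higher without BMDC array 2. Tbx15 read 45.7 and 43.8 in BMDC and 1173 and 1105 in FDC, a difference of 4.29 ± 0.37 (SE, adjusted p = 0.00437). Runx3, a factor of lymphoid and myeloid cells, read 1591 and 1630 in BMDC and 60.4 and 94.9 in FDC, a difference of -4.17 ± 0.40 (SE, adjusted p = 0.00557). The T-box factor Tbx18 was higher (3.87, not tested without FDC array 1 or FDC array 2). The GATA cofactor Zfpm2 was higher (3.36, call lost without BMDC array 2 at 3.27, adjusted p = 0.0525). Tbx3 was higher as well (2.82, call lost in each fit without 1 array other than FDC array 1, with differences of 2.40 to 2.94 and adjusted p of 0.0564 to 0.0901). So was the forkhead factor Foxf1 (2.67, call lost without BMDC array 1 at 2.76, adjusted p = 0.0633 and without BMDC array 2 at 2.59, adjusted p = 0.0755). The corepressor Cbfa2t3 was the other lower gene (-2.07, call lost in each of the 4 fits without 1 array, with differences of -2.30 to -1.85 and adjusted p of 0.0673 to 0.164).

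In the HLH list 7 of 42 tested factors rose and 3 fell (23.8% called). With 1 array left out 4 to 7 were higher, the fewest without either BMDC array, and 2 to 5 lower, the most without FDC array 2. The inhibitors Id2 and Id3 moved in opposite directions. Id3 read 124 and 5.70 in BMDC and 8520 and 5333 in FDC, with 1 BMDC array under background, and Id2 read 8243 and 11492 in BMDC and 716 and 603 in FDC. The differences were 7.01 ± 0.95 (SE, adjusted p = 0.0143) for Id3 and -3.86 ± 0.40 (SE, adjusted p = 0.00686) for Id2. Ebf2, a relative of the B cell factor Ebf1 that acts in mesenchyme, read 7.10 and 7.5 in BMDC and 1054 and 554 in FDC, a difference of 5.18 ± 0.46 (SE, adjusted p = 0.00471). Ebf3 read 16.7 and 32.0 in BMDC and 400 and 356 in FDC, a difference of 3.37 ± 0.41 (SE, adjusted p = 0.0104). Lyl1, a factor of blood progenitors, read 1480 and 2583 in BMDC and 31.2 and 7.70 in FDC, a difference of -5.97 ± 0.54 (SE, adjusted p = 0.00484), and Tal1 was also lower, at -2.67 ± 0.43 (SE, adjusted p = 0.0224), a call lost in each fit without 1 array other than FDC array 2, with differences of -2.75 to -2.32 and adjusted p of 0.0666 to 0.0909.

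ETS and IRF factors were called lower in 6 of 25 tested genes and higher in 1 (28.0% called), with 3 to 6 lower when 1 array was left out, the fewest without either BMDC array. Spi1, which encodes PU.1, the ETS factor required for myeloid cells, read 8062 and 6459 in BMDC and 118 and 74.4 in FDC, a difference of -6.06 ± 0.42 (SE, adjusted p = 0.00303). Irf4, a factor of conventional dendritic cells and plasma cells, read 2162 and 5217 in BMDC and 118 and 68.8 in FDC, a difference of -5.01 ± 0.57 (SE, adjusted p = 0.00859). Etv4 was the 1 higher gene, at 2.41 ± 0.51 (SE, adjusted p = 0.0499), a call lost in each of the 4 fits without 1 array, with differences of 1.83 to 3.0 and adjusted p of 0.0506 to 0.161.

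The letters GAGGAAG, a core bound by PU.1 and other ETS proteins, were sought in the same windows on both strands. They were found in 10.8% of the windows of all tested genes, in 9.68% of those of higher genes and in 18.8% of those of lower genes, and in 13.1%, 12.4% and 21.3% when any listed window counted. Base composition differed too: the median GC content of the windows was 59.6% over all tested genes, 61.6% over higher genes and 56.4% over lower genes, and its part in these shares was not tested. Among lower genes that have a window, 2 of 11 in the phosphoinositide and phospholipase list held the letters. The counts were 2 of 5 in the semaphorin and plexin list and 1 of 2 in the G protein list. The windows of 3 lower signalling genes described above are shown because each holds the letters, again in capitals, and they are not typical of these lists. They lie at chr19:41385103-41385352 on the minus strand for Pik3ap1, chr10:94944846-94945095 on the minus strand for Plxnc1 and chr10:81524226-81524475 on the minus strand for Gna15. They carry 1, 2 and 2 matches. The windows of the higher genes Yap1, Wwtr1 and Amotl2 shown above hold the letters GAGGAAG as well, left there in lower case. In all 8 motifs were sought on both strands in the windows of the tested genes, and the shares of the other 6 follow. The AP-1 letters TGANTCA were in 4.51% of all windows, 5.20% of those of higher genes and 6.62% of those of lower genes. The letters TTGCNNA of C/EBP proteins were in 28.2%, 23.7% and 33.1%. The metal response letters TGCGCNC were in 21.5%, 22.4% and 14.7%. The letters ACGTG, bound by hypoxia factors, were in 21.5%, 17.9% and 16.9%. The letters TCACGTG of lysosomal gene regulation, which contain ACGTG, were in 4.82%, 3.41% and 4.04%. The E-box CATATG was in 1.56%, 1.43% and 2.57%.
Pik3ap1: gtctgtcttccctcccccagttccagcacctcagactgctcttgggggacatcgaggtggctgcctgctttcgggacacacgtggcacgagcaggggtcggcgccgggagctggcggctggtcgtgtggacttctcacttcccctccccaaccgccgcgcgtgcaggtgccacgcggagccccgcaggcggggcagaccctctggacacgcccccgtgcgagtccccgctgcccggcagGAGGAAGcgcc
Plxnc1: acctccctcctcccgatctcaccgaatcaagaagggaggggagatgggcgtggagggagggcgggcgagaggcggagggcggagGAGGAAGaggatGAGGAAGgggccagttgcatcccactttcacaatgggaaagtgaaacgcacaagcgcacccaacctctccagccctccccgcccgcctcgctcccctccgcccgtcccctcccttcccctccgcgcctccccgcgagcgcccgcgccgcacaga
Gna15: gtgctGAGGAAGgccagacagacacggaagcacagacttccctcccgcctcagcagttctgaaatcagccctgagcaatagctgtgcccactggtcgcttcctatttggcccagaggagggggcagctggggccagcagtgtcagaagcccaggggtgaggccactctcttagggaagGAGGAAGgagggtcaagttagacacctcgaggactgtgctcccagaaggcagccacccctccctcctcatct

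Of 41 tested bZIP factors 4 rose and 4 fell (19.5% called), and 2 were higher without either BMDC array or FDC array 1. Nfe2, a factor of megakaryocytes and red cell precursors, read 2470 and 2701 in BMDC and 11.3 and 44.6 in FDC, a difference of -6.07 ± 0.52 (SE, adjusted p = 0.00442). Atf3, a stress-induced factor, read 7515 and 5015 in BMDC and 75.7 and 130 in FDC, a difference of -5.76 ± 0.46 (SE, adjusted p = 0.00379). Batf3, needed for cross-presenting dendritic cells, read 2655 and 4302 in BMDC and 95.6 and 25.1 in FDC, a difference of -5.69 ± 0.62 (SE, adjusted p = 0.00767). Creb5 was the remaining lower gene, with both FDC arrays under background (-4.09, not tested without BMDC array 2). Fosl1, a Fos protein of migrating mesenchymal and epithelial cells, read 42.2 and 112 in BMDC and 1805 and 2512 in FDC, a difference of 4.67 ± 0.53 (SE, adjusted p = 0.00853). Creb3l1, a factor of secretory cells, was higher (3.35, call lost without BMDC array 1 at 3.48, adjusted p = 0.0677 and without BMDC array 2 at 3.21, adjusted p = 0.0843). Its relative Creb3l2 was higher (2.94, call lost without BMDC array 2 at 2.60, adjusted p = 0.0755 and without FDC array 1 at 2.78, adjusted p = 0.0589). Cebpd, of the C/EBP family, was the last (3.02, call lost in each fit without 1 array other than FDC array 2, with differences of 2.32 to 3.45 and adjusted p of 0.0792 to 0.152).

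Among 79 tested zinc finger, NFI and other factors 14 rose and 4 fell (22.8% called), and the lower count was 1 without BMDC array 1 and 2 without BMDC array 2. Aebp1, a repressor first known from fat cell precursors whose longer form is secreted, read 15.4 and 22.8 in BMDC and 11238 and 7804 in FDC, a difference of 8.15 ± 0.41 (SE, adjusted p = 0.00264). Hmga2, a chromatin protein of embryonic and proliferating mesenchyme, read 78.2 and 54.3 in BMDC and 3207 and 15245 in FDC, so FDC array 2 was several-fold above FDC array 1, and the difference was 6.46 ± 0.79 (SE, adjusted p = 0.0106). Snai2, a zinc finger factor of mesenchyme, read 15.9 and 7.10 in BMDC and 888 and 1778 in FDC, a difference of 5.65 ± 0.50 (SE, adjusted p = 0.00468). Osr1, another, read 5.80 and 20 in BMDC and 937 and 1056 in FDC, a difference of 5.27 ± 0.44 (SE, adjusted p = 0.00413). Myb, a factor of blood progenitors, read 2333 and 1324 in BMDC and 63.3 and 68.1 in FDC, a difference of -4.47 ± 0.44 (SE, adjusted p = 0.00608). The lymphoid factor Ikzf1 was lower (-3.69, call lost without BMDC array 1 at -3.79, adjusted p = 0.114 and without BMDC array 2 at -3.59, adjusted p = 0.135). Ciita, which switches on MHC class II genes, was lower (-2.86, call lost in each fit without 1 array other than FDC array 2, with differences of -3.18 to -2.36 and adjusted p of 0.0669 to 0.117). Lmo2, a partner of Tal1 and Lyl1, was lower (-2.84, call lost in each fit without 1 array other than FDC array 1, with differences of -2.93 to -2.14 and adjusted p of 0.0732 to 0.132). Nuclear receptors were called at 12.9%, near the share over all genes, with 3 of 31 higher and 1 lower. Besides Rarb, given above, Nr2f2 was higher (4.81, call lost without FDC array 1 at 4.56, adjusted p = 0.0619). The clock factor Nr1d1 was higher (3.87, call lost without BMDC array 2 at 3.06, adjusted p = 0.0580 and without FDC array 1 at 3.55, adjusted p = 0.0782). Nr4a3, an orphan receptor, was lower (-5.54, call lost without BMDC array 2 at -4.76, adjusted p = 0.0937).

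**Figure D4:**
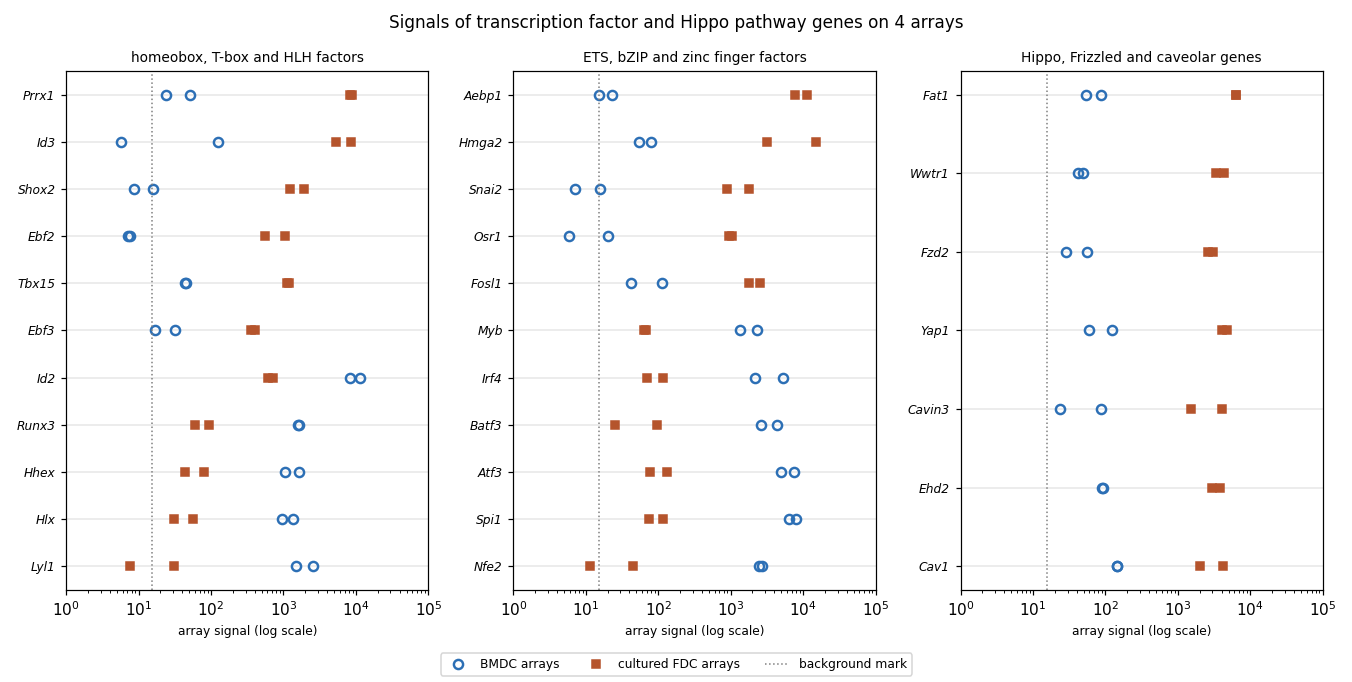
Signal on each of 4 arrays (log scale) for named transcription factor, Hippo, Frizzled and caveolar genes, with open circles for the 2 BMDC arrays, squares for the 2 cultured FDC arrays and a dotted line at the highest background mark of 15.4. Id3 and Id2 lie on opposite sides, and all 7 genes of the right panel have both squares right of both circles.

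The secretory pathway was called mostly higher, with 11 of 67 tested genes higher and 1 lower (17.9% called), but the higher count was 2 without BMDC array 2, 4 without FDC array 1, 5 without BMDC array 1 and 8 without FDC array 2. Kdelr3, which returns resident proteins to the endoplasmic reticulum, read 459 and 320 in BMDC and 7582 and 9717 in FDC, a difference of 4.43 ± 0.41 (SE, adjusted p = 0.00505). Fkbp14, a prolyl isomerase that helps collagen fold, read 80.4 and 136 in BMDC and 3031 and 1871 in FDC, a difference of 4.33 ± 0.47 (SE, adjusted p = 0.00756). Ero1b, an oxidase for disulfide formation, was the 1 lower gene at -1.99 ± 0.37 (SE, adjusted p = 0.0335), a call lost in each of the 4 fits without 1 array, with differences of -2.03 to -1.95 and adjusted p of 0.0884 to 0.133. Both BMDC arrays agreed closely for it, and so did both FDC arrays.

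Members of one protein family were called in both directions in 5 of the 73 paralog families examined. Besides the ID proteins, these were the ETS variant factors, the RGS proteins, the phospholipases C and the tetraspanins. Tetraspanins organise receptors in the surface membrane, and of 39 tested tetraspanin, galectin and annexin genes 4 rose and 6 fell (25.6% called). The lower count was 2 without either BMDC array and 3 without either FDC array, and the higher count 1 without FDC array 1 and 2 without any of the others. Cd37, a tetraspanin of blood cells, read 4845 and 2008 in BMDC and 137 and 48.9 in FDC, a difference of -5.0 ± 0.66 (SE, adjusted p = 0.0132). Tspan33 read 489 and 831 in BMDC and 37.1 and 25.5 in FDC, a difference of -3.85 ± 0.45 (SE, adjusted p = 0.00902), with 1 of 3 tested probe sets called. Tspan6 read 45.0 and 68.5 in BMDC and 2714 and 1566 in FDC, a difference of 4.89 ± 0.46 (SE, adjusted p = 0.00530), and was the only one of the 4 higher tetraspanins to hold its call in every fit. Tspan11 was higher (3.39, call lost in each fit without 1 array other than BMDC array 2, with differences of 2.58 to 3.47 and adjusted p of 0.0714 to 0.0908). Tspan4 was higher (3.11, call lost without BMDC array 2 at 2.83, adjusted p = 0.0677 and without FDC array 1 at 2.84, adjusted p = 0.0517). Cd81 was higher (1.99, call lost in each of the 4 fits without 1 array, with differences of 1.81 to 2.17 and adjusted p of 0.0762 to 0.173).

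Some of the largest differences lay outside these lists. Among the genes ranked 11 to 30 in rises, Casp12, a caspase of the endoplasmic reticulum, read 7.10 and 4.70 in BMDC and 4512 and 5240 in FDC, a difference of 7.93 ± 0.37 (SE, adjusted p = 0.00264). Tmem45a, a membrane protein, read 7.20 and 10.7 in BMDC and 7276 and 4661 in FDC, a difference of 7.98 ± 0.42 (SE, adjusted p = 0.00264). Both had the 2 BMDC arrays under background. Fgf7, the keratinocyte growth factor that mesenchyme supplies to epithelium, read 2.10 and 72.1 in BMDC and 13366 and 23363 in FDC, a difference of 8.88 ± 0.86 (SE, adjusted p = 0.00558). Igfbp7, which binds insulin-like growth factors, read 101 and 107 in BMDC and 44284 and 28096 in FDC, a difference of 8.23 ± 0.42 (SE, adjusted p = 0.00264). The chemokine Cxcl9, which is induced by interferon gamma, read 3.10 and 7.20 in BMDC and 1421 and 29344 in FDC, so its FDC arrays lay far apart (8.40, call lost without BMDC array 1 at 8.24, adjusted p = 0.0670 and without BMDC array 2 at 8.55, adjusted p = 0.0630). The same ranks among the falls held Ocstamp, a fusion protein of osteoclasts, at 5111 and 4111 in BMDC and 3.60 and 9.90 in FDC, a difference of -7.79 ± 0.40 (SE, adjusted p = 0.00264). Alox5ap, the protein that hands arachidonate to lipoxygenase for leukotriene synthesis, read 16197 and 13435 in BMDC and 31.2 and 148 in FDC, a difference of -7.43 ± 0.67 (SE, adjusted p = 0.00482). Cfp, the complement protein properdin, read 16694 and 19694 in BMDC and 75.0 and 119 in FDC, a difference of -7.38 ± 0.41 (SE, adjusted p = 0.00264). Myo1f, a myosin of immune cells, read 8304 and 6354 in BMDC and 7.0 and 37.8 in FDC, a difference of -7.78 ± 0.55 (SE, adjusted p = 0.00313). The chemokine Ccl17 read 6416 and 58600 in BMDC and 71.0 and 173 in FDC, with BMDC array 2 far above BMDC array 1 (-7.26, call lost without FDC array 1 at -6.70, adjusted p = 0.0594).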

How the data were processed

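Labelled RNA of 2 BMDC and 2 cultured FDC samples was hybridised to Affymetrix mouse arrays, 1 array per sample, with a one-cycle labelling kit, per the labels' protocols. The values are linear intensity per probe set as deposited by the authors, scaled so that the trimmed mean (2% off each end) was 500 on every array. The program that made the intensities is not given in the sources used here, and no detection calls were used.

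The table held 45101 probe sets, 64 of them controls. A platform annotation gave 34945 probe sets 1 gene symbol, 932 several and 9160 none, and only those with 1 symbol were named. Each gene was read from its probe set of highest mean log2 intensity over the 6 arrays. Values were set to log2(intensity + 14.2). Probe sets were kept if the mean of these log2 values on the 4 arrays was above the 40th percentile. The cut corresponds to an intensity of 46.4. Probe sets bright in only 1 cell type could therefore be dropped, such as that of Tie1 (198 and 154 in BMDC, 2.0 and 3.70 in FDC). Those kept were fitted with lmFit and eBayes in limma 3.58.1 (R 4.3.3), with 2 residual and 3.35 prior degrees of freedom. Tests were two-sided, Benjamini-Hochberg adjustment ran over all 27022 probe sets tested, and the threshold was 0.05. The background mark of an array was its 20th percentile of intensity. Precision is limited by having 2 arrays per cell type. The code was tested on simulated data, in which differences of 4 or more (log2) were mostly recovered, those of 2 seldom and those of 1 not, and the share of false calls was above the threshold.

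The gene lists and the genes described were chosen with earlier results of these data known. The counts of 1 list are not reported here. Named were up to 4 higher and 4 lower genes per list with the largest differences that held in each fit without 1 array, else up to 2 called genes, or, where none was called, the 2 of largest difference. Also named were called members of families called in both directions, genes ranked 11 to 30, and cell type markers. Alternatives were another offset, a floor, other scalings and filters, an intensity trend, averaged probe sets, a replicate block and leaving out each array. Promoter windows came from RefSeq (GRCm38.p6).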

Additional observations from a re-analysis of the deposited data

How the results depend on the processing

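In every alternative setting tried, 0 of the 1436 called genes changed sign, and the share of higher calls stayed between 49.7% and 56.4% of the genes called. The settings reuse the arrays that gave the calls, so a kept sign is not an independent check. With values floored at a signal of 3.3 in place of the offset, 793 probe sets were higher and 661 lower, and 467 genes higher and 417 lower. With no filter on dim probe sets, 795 probe sets were higher and 638 lower, and 436 genes higher and 393 lower. With 1 array left out, 776 to 1042 probe sets were higher and 536 to 1048 lower, and 419 to 622 genes were higher and 350 to 616 lower, the fewest without BMDC array 2 and, for lower genes, equally without BMDC array 1. A fit that leaves 1 array in a cell type assumes that this array varies like those of the other. The array number shared by the cell types is not said to mark a pair, and with 2 pairs the deviations correlated at r = 0.199. With the array number as a replicate block, 1326 probe sets were higher, and 760 genes were higher and 655 lower, of which 1204 were among the 1436 called without it. The other offset, scalings, filter, the intensity trend and averaged probe sets kept the counts of genes within 1.5 times. Signals near background limit the size of differences: for 114 called genes both arrays of the lower cell type lay under the background mark. The cause of these changes was not tested.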

Other observations

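Adjacent genes that were both called mostly went the same way, but genes called in opposite directions lay next to each other in several places. Of 8377 pairs of tested genes that are adjacent in the RefSeq gene table (GRCm38.p6), both members were called in 177, of which 56 pairs had both members higher in cultured FDC, 72 both lower and 49 one of each. Sema3c, a secreted semaphorin, was higher by 7.22 beside Cd36, the fatty acid importer, at -8.06. Nfix, a nuclear factor, was higher by 3.50 beside Lyl1, a factor of blood progenitors, at -5.97. These 4 genes kept their call in all 4 fits without 1 array. Pdgfrb, a growth factor receptor of mesenchymal cells, was higher by 2.73 beside Csf1r, its relative in myeloid cells, at -7.26, but its call was lost in each fit without 1 array other than BMDC array 1, with differences of 2.21 to 2.99 and adjusted p (limma) of 0.0611 to 0.119. The pairs were picked after their values were seen, and they are given as values only.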
